A study of Caenorhabditis elegans with 2 samples.

Results

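egl-9 is a single gene on the forward strand of chromosome V of the nematode Caenorhabditis elegans, and the measurements given here are the regions at that gene in a chromatin immunoprecipitation sequencing (ChIP-seq) map of the transcription factor AHA-1. A region was counted at egl-9 where its summit lay between 5 kb upstream of the outermost annotated start and the end of the gene, a window of 13399 bp from 10463517 to 10476915 on the ce11 assembly. By that rule the list made from both replicates together (the pooled list) held 10 of its 30000 regions at egl-9, the list of replicate 1 held 9 of 24611, the list of replicate 2 held 5 of 18195, and the authors' thresholded list held 1 of 530 peaks. The gene is 1 of 19973 protein-coding genes in the annotation used. egl-9 was chosen by the measured signal of its strongest region, the highest of the whole map, so the signals and ranks at egl-9 are given as a description and carry no test.

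The libraries came from a single group, whole first-stage (L1) larvae of strain OP124, in which the labels name a mutation, unc-119(ed3) III, and an insertion, wgIs124, that targets aha-1. The fused factor is named as eGFP-aha-1, the antibody only as aha-1, and the larvae were of both sexes and of unknown age. There were 2 biological replicates and no second condition, so nothing was compared between treatments, and the labels give the replicates separate biosamples without saying whether they were grown apart. The promoter that drives the fusion and the state of the native aha-1 gene are not given in the sources used here. In whole larvae, strong binding in few cells and weak binding in many cannot be told apart. Each region carries the authors' signal value, whose scale is not stated, so signals were compared only within 1 list or as multiples of that list's median. The number of reads behind a region is unknown.

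In worms AHA-1 stands for what mammals call ARNT, the shared partner of a family of bHLH-PAS transcription factors that includes HIF-1. The HIF-1 and AHA-1 dimer binds DNA at a short core that reads ACGTG or GCGTG on one of its strands. ARNT homodimers are known to bind the palindrome CACGTG. Only AHA-1 was mapped here, so a core word at a region does not show which partner was bound with it. EGL-9 is an enzyme that uses oxygen to hydroxylate HIF-1 on a proline, after which the VHL-1 ubiquitin ligase complex marks HIF-1 for destruction. EGL-9 therefore sets how much HIF-1 a worm has at a given oxygen level, and in mammals genes of the same enzyme family are themselves induced by HIF.

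The one thresholded peak at egl-9 spanned 248 bp, from 10466664 to 10466911 on chromosome V, with its summit 1732 bp upstream of the outermost egl-9 start. Its signal was 254 in the pooled list, 167 in replicate 1 and 94.9 in replicate 2, and it ranked 1 in each. All 3 values stood above every other region of their own list. The sequence under the peak is shown because it holds a cluster of core words. It is given on the forward strand, 5′ to 3′, in lower case with each ACGTG or GCGTG, on either strand, in capitals.
chrV:10466664-10466911 (ce11), egl-9 peak: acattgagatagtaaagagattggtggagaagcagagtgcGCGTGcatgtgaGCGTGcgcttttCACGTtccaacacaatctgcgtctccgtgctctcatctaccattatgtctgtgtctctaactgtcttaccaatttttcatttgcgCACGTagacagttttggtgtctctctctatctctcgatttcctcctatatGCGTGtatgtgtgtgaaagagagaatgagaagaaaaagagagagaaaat

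The peak held 5 core words, 3 of them GCGTG and 2 of them ACGTG read on the reverse strand as CACGT. The first 3 began 12 bp apart from each other and together spanned 29 bp, starting 81 bp upstream of the summit. The others began 28 bp and 78 bp downstream of the summit, so the summit itself lay in the gap between the groups. No CACGTG was within 100 bp of the summit. Words were counted on both strands, and a CACGTG counts as an ACGTG on each.

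Within 100 bp of the summit the egl-9 peak had 5 core words, as many as or more than all but 1 of the 530 thresholded peaks. Of those 530 peaks, 7 had 5 or more (1.32%) and 299 had at least 1 (56.4%), with a mean of 0.987. Among all 30000 pooled regions, 0.133% had 5 or more in a stretch of the same length, and among adjoining 201 bp stretches of the 6 chromosomes 0.123% did. Counted singly, GCGTG occurred 3 times at the egl-9 peak, which 1.32% of thresholded peaks reached, and ACGTG 2 times, which 13.0% reached. A run of 3 core words within 29 bp, a measure chosen after the egl-9 sequence was seen, occurred near 17 of the 530 summits (3.21%) and in 0.306% of the stretches. The count depended on how far from the summit it was taken, with 0 words within 25 bp and 1 within 50 bp, where 42.3% of thresholded peaks had at least 1.

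**Figure D1:**
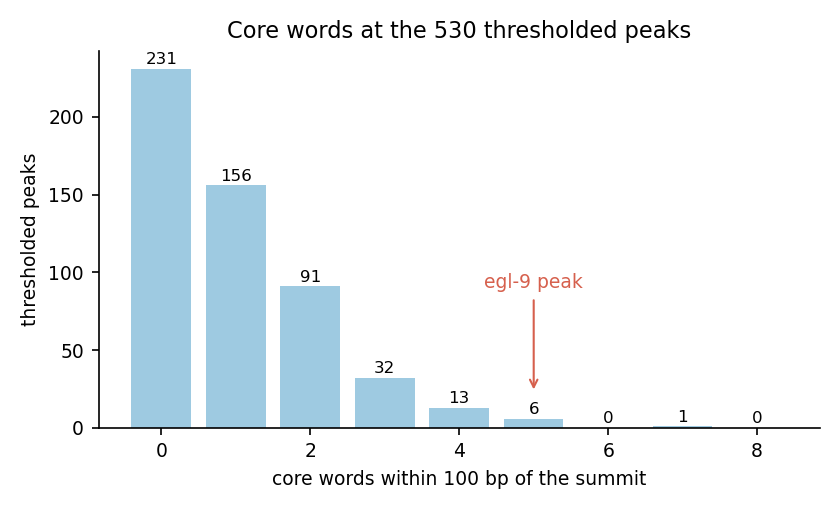
Number of thresholded peaks (vertical axis) by the number of core words, ACGTG or GCGTG on either strand, within 100 bp of the summit (horizontal axis). The arrow marks the class of 5 words, which holds 6 peaks including the one at egl-9, and 1 further peak had 7.

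Other short words also lay near the egl-9 summit. GAGAGA, a GA-repeat word, was counted 3 times within 100 bp of the summit, which 12.6% of thresholded peaks reached. Overlapping copies were counted separately at every region, and at egl-9 some of the 3 overlap. Of the thresholded peaks 43.0% held at least 1, against 14.1% of pooled regions. The general E-box CANNTG occurred 2 times, which 25.1% reached, and 59.6% held at least 1, against 53.5% of pooled regions. The GC content of the 201 bp around the summit was 46.8%, against a median of 44.3% over the 530 peaks (quartiles 39.8 to 49.8%). No stretch of 30 bp within the peak had an exact copy elsewhere on the 6 chromosomes, on either strand.

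The egl-9 signal stood well above that of the next region in all 3 lists. In the pooled list the egl-9 signal of 254 was followed by 118 at nhr-57, a HIF-1-responsive gene for a nuclear receptor, a ratio of 2.14. In replicate 1 it was 167, followed by 84.1, again at nhr-57, a ratio of 1.98. In replicate 2 it was 94.9, followed by 53.7 at a site whose nearest start is that of ZK470.4, a ratio of 1.77. Over the median of its own list the egl-9 peak stood at 59.4 times in the pooled list, 52.7 times in replicate 1 and 33.0 times in replicate 2. On the ce10 assembly the strongest region also lay on chromosome V, with a signal of 254 in the pooled list, 167 in replicate 1 and 94.9 in replicate 2. Those are the same reads placed on another assembly, and coordinates were not converted.

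**Figure D2:**
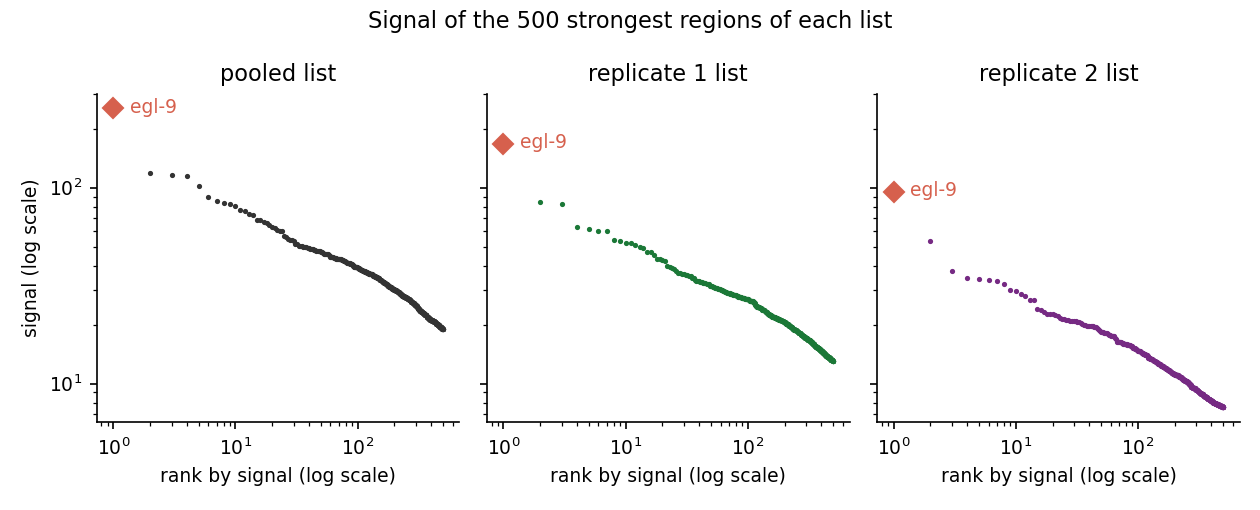
Signal (vertical axis, log scale, no stated unit) against rank (horizontal axis, log scale) for the 500 strongest regions of the pooled list and of each replicate. The red diamond is the egl-9 peak, at 254, 167 and 94.9, and it stands apart from the region of rank 2 in each panel.

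The egl-9 peak was also placed alike in both replicates. Its summit lay 1728 bp upstream of the outermost start in replicate 1 and 1742 bp in replicate 2, which is 14 bp apart. Over the 504 thresholded peaks that overlapped a region in both replicates, the summits of the replicates were a median of 29 bp apart (quartiles 11.8 to 56 bp), and 30.2% were no farther apart than at egl-9. The agreement in position was thus ordinary for a thresholded peak. The region was narrower than most, at 248 bp in the pooled list, 225 bp in replicate 1 and 146 bp in replicate 2, where the medians were 316, 324 and 296 bp. Only 11 regions of the pooled list were narrower than its median, and all 11 were among its 13 strongest.

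The peak lay in the intergenic stretch between protein-coding genes chw-1 and egl-9. The first, chw-1, ends 2125 bp upstream of the summit and points the same way as egl-9. Its start was 4503 bp from the summit, farther than that of egl-9. The start of F22E12.3, on the other strand, was 3409 bp away. The next protein-coding gene past egl-9, crp-1, starts 11779 bp from the summit. Among the 530 thresholded peaks, 97 (18.3%) had their summit at least as far from a protein-coding start as this one. Their median signal was 27.7, and the strongest of them after egl-9 was the peak near ZK470.4 with a pooled signal of 116.

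Under the summit itself the annotation places a pair of short non-coding RNA genes that overlap on opposite strands. F22E12.10 runs from 10466669 to 10466813 on the forward strand and F22E12.9 from 10466680 to 10466824 on the reverse strand, each 145 bp long. The summit was 116 bp into F22E12.10 and 39 bp into F22E12.9. Another, F22E12.12, lay 236 bp beyond the summit on the reverse strand. Of the 530 thresholded summits, 52 (9.81%) fell inside an annotated non-coding RNA gene of this class and 21 (3.96%) inside such genes on both strands. No expression was measured in this series, so whether these RNAs were made in the larvae was not tested.

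The annotation gives egl-9 transcripts that begin at 3 places. Isoforms a, b and d begin within 8 bp of the outermost start at 10468517, isoform e 1907 bp and isoform c 4816 bp inside the gene. From the start of isoform e the peak was 3639 bp upstream, and from that of isoform c 6548 bp. The window of the gene held 46 core words, 3.43 per kb against 1.70 per kb over the 6 chromosomes, and no stretch of 201 bp in it held more than the 5 words of the peak. The single CACGTG in the window began 3156 bp upstream of the outermost start, 323 bp from the nearest pooled summit. In all, 11 of the 46 core words lay within 100 bp of a pooled summit, 5 of them at the peak, and 35 lay farther away. The count expected from the share of the window near a summit was not computed, so it shows no enrichment.

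**Figure D3:**
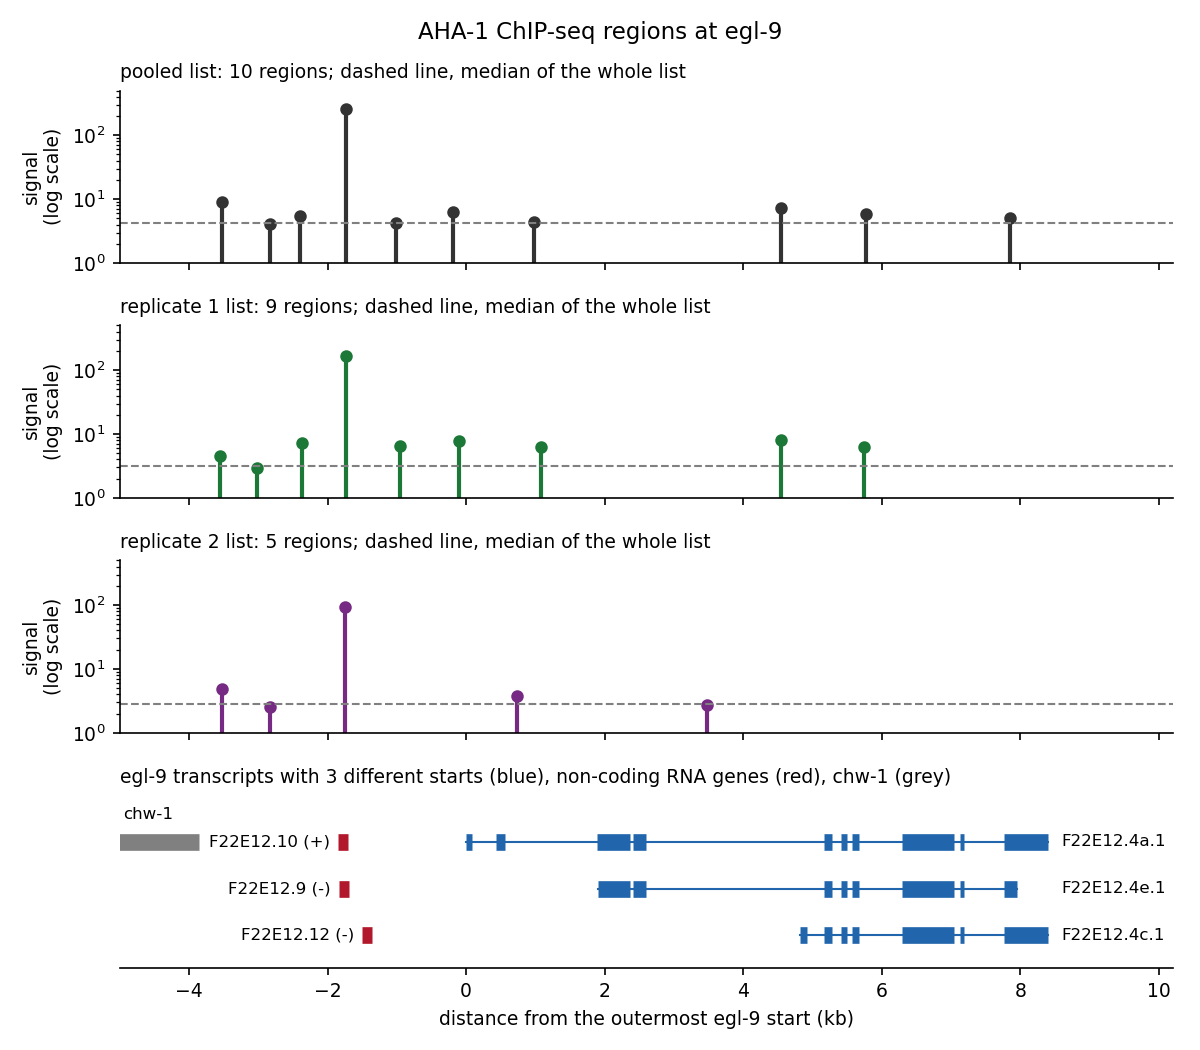
Signal (vertical axes, log scale, stems drawn from 1) of every region in the egl-9 window by distance from the outermost start (horizontal axis, kb) in the pooled list and in each replicate, above the transcripts that represent the 3 start positions. The peak 1732 bp upstream, over a pair of non-coding RNA genes, reaches 254 in the pooled list, while the other 9 pooled regions lie between 4.15 and 8.87.

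The other 9 pooled regions at egl-9 were weak. Their signals ran from 4.15 to 8.87 with a median of 5.38, while the median of the pooled list was 4.27 and the lowest thresholded peak had 18.4. The peak was 28.6 times the strongest of them. Of the 9, 5 lay upstream of the gene, at 3519, 2833, 2392, 1011 and 188 bp before the outermost start, and 4 inside it. Among those inside, the summits 986, 4541 and 5774 bp after the start were in introns and the one 7854 bp after it in a coding exon. The regions nearest to the edges of the window on the outside had pooled signals of 6.71, 2760 bp before it, and 7.20, 132 bp past the end of the gene. These lists hold background by construction, and a weak region is not a call.

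The strongest of the weak regions lay 3519 bp upstream. Its signal was 8.87 in the pooled list, 4.47 in replicate 1 and 4.88 in replicate 2, with ranks of 2029, 5463 and 1856, and its summit was placed at the same base in the pooled list and in replicate 2. It had 1 core word, 18 bp from the summit, and it lay nearer to the start of F22E12.3, 1622 bp away, than to that of egl-9. The region 188 bp before the outermost start had a pooled signal of 6.36 (rank 5182), and in replicate 1 it was listed at 7.65 (rank 1416) with its summit 107 bp before the start. Replicate 2 listed no region there. The region 4541 bp after the start lay in an intron, 275 bp before the start of isoform c, and had a signal of 7.16 in the pooled list and 8.13 in replicate 1 (rank 1241), again with none in replicate 2.

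These 3 sites are shown for comparison with the peak, since each lies at or near a start of the gene or is the next strongest region, and each holds core words without a high signal. Capitals again mark the core words on either strand, all sequences read 5′ to 3′ on the forward strand of ce11, and none overlaps a coding exon or a UTR.
chrV:10468267-10468516, the 250 bp before the outermost egl-9 start: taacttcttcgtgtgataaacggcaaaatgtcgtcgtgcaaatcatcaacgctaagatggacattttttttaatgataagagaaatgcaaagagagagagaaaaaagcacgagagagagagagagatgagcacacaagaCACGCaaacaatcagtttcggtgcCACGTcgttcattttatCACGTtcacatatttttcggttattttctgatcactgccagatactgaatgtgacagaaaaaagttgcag
chrV:10464923-10465073, 75 bp to either side of the summit 3519 bp upstream: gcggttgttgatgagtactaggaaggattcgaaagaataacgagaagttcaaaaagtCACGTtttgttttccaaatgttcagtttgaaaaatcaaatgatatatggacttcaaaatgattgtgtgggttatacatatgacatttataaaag
chrV:10472983-10473133, 75 bp to either side of the summit before isoform c: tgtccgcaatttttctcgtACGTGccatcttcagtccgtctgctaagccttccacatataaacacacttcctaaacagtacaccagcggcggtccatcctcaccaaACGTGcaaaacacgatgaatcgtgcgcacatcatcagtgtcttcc

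The 250 bp before the outermost egl-9 start held 3 core words, which began 111, 87 and 70 bp before it. Over all protein-coding genes, 3.72% of stretches of that place and length held 3 or more and 35.9% held at least 1. The replicate 1 summit lay at the first of these words, with 3 of them within 50 bp. The start of egl-9 was thus rich in core words for a promoter, and its region had a signal of 6.36 in the pooled list and 7.65 in replicate 1, while the peak with 5 words had 254 and 167. Within 100 bp of the summit before isoform c there were 2 core words, both ACGTG on the forward strand.

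Away from the peak the replicates listed partly different regions at egl-9. Replicate 1 listed 6 regions with signals between 6.17 and 8.13 across the locus, at 2370, 956 and 107 bp before and 1088, 4542 and 5739 bp after the outermost start, with ranks from 1241 to 2314 of 24611. Replicate 2 listed 4 regions besides the peak, at 3519 and 2836 bp before and 733 and 3472 bp after the start, with signals from 2.50 to 4.88 against a list median of 2.88. Of the 9 weak pooled regions, 8 overlapped a region of replicate 1 (88.9%, against 53.5% of all pooled regions) and 3 a region of replicate 2 (33.3%, against 38.2%). Regions of both replicates overlapped 3 of the 9 (33.3%), where they overlapped 15.3% of all pooled regions. Their summits in replicate 1 and replicate 2 were 3555 and 3519 bp before, 3016 and 2836 bp before, and 1088 and 733 bp after the start. The replicate regions after the start did not overlap each other, so this share does not measure agreement in position. As multiples of each list's median, the pooled signals of the weak regions were lower than those of replicate 1 at 6 of the 8 shared sites. The lists share no stated scale.

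Counted by strength, 7 of the 9 replicate 1 regions at egl-9 were in the strongest 10% of that list, against 1 of 5 in replicate 2 and 2 of 10 in the pooled list. Of the 814 protein-coding genes whose window was within 10% of the length of that of egl-9, egl-9 was the 1 gene with that many in replicate 1 (0.123%), and the median was 0. In the pooled list 8.48% of the 814 genes had as many as egl-9, and in replicate 2 21.1% did. This count was chosen after the regions of replicate 1 had been seen, and it includes the peak.

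The number of pooled regions was high for a gene of this size. The egl-9 window held 10, or 0.746 per kb, against 0.299 per kb over the genome. Among the 814 genes of like window length the median was 4 (quartiles 3 to 5), and 13 of them, egl-9 included, had 10 or more (1.60%). In replicate 2 alone the egl-9 window held 5.

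**Figure D4:**
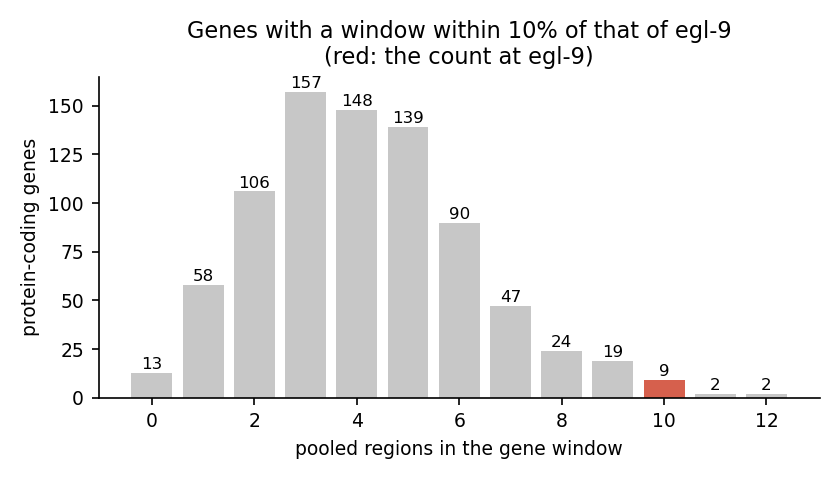
Number of protein-coding genes (vertical axis) by the number of pooled regions in their window, from 5 kb upstream to the gene end (horizontal axis), for the 814 genes with a window within 10% of the length of that of egl-9. The red bar is the class of 10 regions, which holds egl-9 and 8 other genes, while the median is 4.

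The peaks most like that of egl-9 were still far from it. That gap was largely set in advance, since egl-9 was chosen for the highest of these same signals. The pooled list was made from both replicates, so the 3 lists are not separate measurements. Likeness was measured over 3 lists, as the Euclidean distance between the log2 signals over each list's median, for the 504 thresholded peaks present in both replicates. The nearest was the peak 2551 bp upstream of the start nearest to it, that of ZK470.4 on chromosome X, at a distance of 2.03, with 27.1, 19.0 and 18.6 times the median in the pooled list, replicate 1 and replicate 2. Next came nhr-57 at 2.09, rpl-3, a gene of the large ribosomal subunit, at 2.15, hlh-30, which encodes the worm TFEB ortholog, at 2.34, and rpl-15, another large-subunit gene, at 2.66. These are the peaks of rank 2 to 6. Each distance combines the 3 lists, so it is larger than the log2 gap within any 1 list. At egl-9 the multiples of the median were 59.4, 52.7 and 33.0.

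Core words in the peaks of rank 2, 3 and 5 are shown beside those at egl-9, each as the 50 bp to either side of the pooled summit on the forward strand of ce11.
chrV:4131633-4131733, nhr-57: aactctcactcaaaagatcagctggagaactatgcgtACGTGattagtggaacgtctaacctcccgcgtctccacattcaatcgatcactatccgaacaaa
chrX:4142268-4142368, ZK470.4: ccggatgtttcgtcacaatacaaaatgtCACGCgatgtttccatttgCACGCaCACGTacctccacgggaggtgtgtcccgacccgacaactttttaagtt
chrIV:4026085-4026185, hlh-30: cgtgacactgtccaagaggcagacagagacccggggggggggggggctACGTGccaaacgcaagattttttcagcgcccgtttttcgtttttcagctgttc

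Within 50 bp of their summits the peaks near nhr-57, ZK470.4 and hlh-30 had 1, 3 and 1 core words, and that of egl-9 had 1. Within 100 bp the counts were 1 at nhr-57, 7 near ZK470.4 and 3 at hlh-30, against 5 at egl-9. The peaks of rank 4 and 6, near rpl-3 and rpl-15, are not shown and had 1 each within 100 bp. The egl-9 peak lay 1732 bp before its start and the other peak rich in core words lay 2551 bp before ZK470.4. The nhr-57 peak lay 206 bp before its gene and carried the single word ACGTG near its summit. Of the remaining peaks among the 10 strongest, the nearest genes were sqrd-1, which encodes the sulfide:quinone oxidoreductase, tasp-1, iff-2 and F09E10.1, with pooled signals of 85.1, 83.2, 82.7 and 80.3 and 1 or 2 core words within 100 bp.

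Other genes of the HIF-1 pathway were read in windows drawn by the same rule. Of the 19 genes on the pathway list, 8 had a thresholded peak between 5 kb upstream and the gene end (42.1%), where 5.36% of all protein-coding genes did, and the list was drawn up with earlier results of these data known. By role these were hif-1 and aha-1 for the dimer itself, rhy-1 and cysl-1 among the regulators upstream of HIF-1, and cysl-2, nhr-57, sqrd-1 and F22B5.4 among genes known to respond to hypoxia or HIF-1. The strongest pooled signals were 254 at egl-9, 118 at nhr-57, 85.1 at sqrd-1, 40.8 at rhy-1 and 36.9 at hif-1. In replicate 1 and replicate 2 the strongest peak ranked 98 and 1515 at hif-1, and 120 and 7047 at aha-1. The ranks were 152 and 79 at rhy-1, 574 and 161 at cysl-1, and 2 and 5 at nhr-57. At sqrd-1 they were 13 and 8, and at F22B5.4 340 and 976. That of cysl-2 ranked 154 in replicate 1, and replicate 2 listed no overlapping region. The peaks in the windows of aha-1, cysl-1 and cysl-2 lay nearer to the starts of other genes (C25A1.15, ZC506.1 and dhs-8). Whether reads at aha-1 came from the native gene or from the strain's insertion, which targets aha-1, was not tested.

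The partners of EGL-9 in the turnover of HIF-1 had no thresholded peak in their windows, as was true of most protein-coding genes, of which 5.36% had one. The strongest pooled region in the window of vhl-1, which encodes the protein that recognises hydroxylated HIF-1, had a signal of 3.00, below the list median of 4.27. In the windows of the genes for the other subunits of that ubiquitin ligase it was 6.01 at cul-2, 16.0 at elb-1, 12.1 at elc-1 and 9.87 at rbx-1, and at swan-1, whose product binds EGL-9, it was 7.14. The regions in the windows of vhl-1, elc-1, rbx-1 and swan-1 lay nearer to starts of other genes. Among further hypoxia-response genes the values were 14.0 at ethe-1, 7.66 at phy-2, 7.94 at cah-4, 4.29 at smf-3 and 9.95 at ftn-1, with that of ethe-1 nearer to another gene's start. The signal at egl-9 was thus the highest of the 20 genes in the pooled list and in each replicate, a direction set by the choice of the gene.

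**Figure D5:**
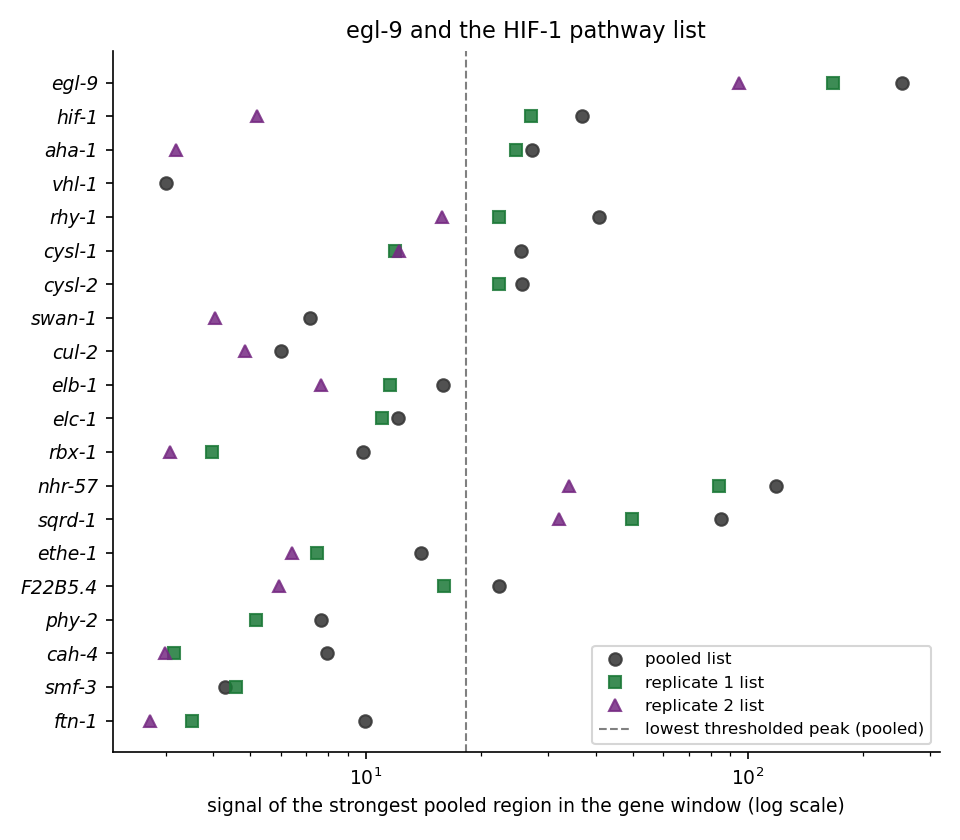
Signal (horizontal axis, log scale) of the strongest pooled region in the window of egl-9 and of each gene on the pathway list (vertical axis), with the signal of the overlapping region in replicate 1 and replicate 2 where one was listed. The dashed line is the lowest thresholded peak of the pooled list, 18.4, and egl-9 stands at 254, 167 and 94.9.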

How the data were processed

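AHA-1 ChIP-seq of 2 biological replicates of whole L1 larvae was read from narrowPeak lists. The text that the authors deposited beside their samples describes relaxed lists of peaks and background for each replicate and for both pooled, each made with a control alignment, and a list thresholded by irreproducible discovery rate (IDR). The deposited signal value of each region was used as written. The deposited −log10 q-value was shared by 1074 pooled regions at its maximum and was not used for ranking. The aligner, peak caller, IDR threshold and read depth are not given in the sources used here, and the control was not analysed here. Labels give a fragment size range of 150 to 350 bp.

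Summits are column 2 plus column 10, written 1-based. Coordinates are on ce11, with gene models from Ensembl release 115 (WBcel235) and sequence from the RefSeq copy of the same assembly. ce10 lists were used without converting coordinates. A replicate region matched a pooled one where they overlapped by at least 1 bp, the nearest summit being taken. Counting was checked on 200 simulated windows, and all 200 gave the planted word count. Python 3.11.15, pandas 2.3.3 and numpy 2.4.6 were used. No hypothesis test was run: there was 1 group, and egl-9 was chosen for its signal. The gene, the pathway list and the measures were chosen with earlier results of these data known. Genes named are egl-9, genes containing or starting within 1000 bp of its summits, those at the 9 next strongest peaks, the 5 most alike peaks and the pathway list, together with neighbouring genes, the starts nearest to pathway peaks and the genes at peaks rich in core words, which were named after their values were seen.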

Additional observations from a re-analysis of the deposited data

How the results depend on the processing

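Over 23 alternatives to 6 measurements, 16 stayed within the spread of the replicates or, for counts, within 1.5 times, and 7 did not. This tally is no measure of robustness. Because egl-9 was chosen as the highest region of the map, some alternatives could hardly change. The spread also came from the same 2 replicates that were left out in turn. The rank of the egl-9 peak was 1 in each replicate. In the ce10 list the region of rank 1 lay on chromosome V and was taken as the egl-9 peak without converting coordinates. Leaving out 1 replicate, the signal over the list median was 33.0 to 52.7 (59.4 pooled), the region count 5 to 9 (10 pooled), the core words within 50 bp 1 to 2 (1 pooled), and the summit -1742 to -1728 bp from the start (-1732 pooled). The lower signal and count came from replicate 2 alone, and the cause was not tested. Over the median of the thresholded peaks the signal was 9.44 times, by construction, since these are the strongest regions. The core word count was 0 within 25 bp and 5 within 100 bp, also by construction. The thresholded count was 1 with 2000 or 10000 bp upstream. It was also 1 among the stronger of the peaks when split at their median, which the choice of egl-9 fixed in advance. Ranking by the other columns was not run, because 1 is constant and the other is tied at its maximum. No paired analysis was possible because there is a single group. Read depth is unknown, so a region missing from a list was not detected there and is not shown to be absent.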

Other observations

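Besides egl-9, 6 thresholded peaks had 5 or more core words within 100 bp of the summit. The nearest starts were those of ZK470.4 (7 words, rank 3, signal 116), T04C4.3 (rank 51, signal 46.7), C49F8.15 (rank 133, signal 35.9), ubql-1 (rank 184, signal 31.1), lpin-1 (rank 303, signal 24.8) and F55H12.7 (rank 400, signal 21.1). Those with 5 words thus ran from rank 400 of 530 to the top of the list.

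Inside egl-9, 11 core words lay between 2729 and 3932 bp after the outermost start, and no pooled region had its summit there. The bounds were taken from the words after they were seen. Pooled regions numbered 0.746 per kb in the window and 0.299 per kb over the genome, so a stretch of this length without a summit is not unusual. These words lay 609 to 1775 bp from the nearest pooled summit. Replicate 2 listed a region at 3472 bp with a signal of 2.70, below its list median of 2.88.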
